A study of Glycine max with 72 samples.

Results

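The genes described here are the neighbours of MRP-N (Glyma.03G167800), which lies on chromosome 3 of the Williams 82 assembly Wm82.a2.v1 at positions 38202353 to 38210883 on the minus strand. Members were all annotated genes on chromosome 3 whose start lay within 2 Mb of the start of MRP-N, MRP-N itself excluded. The rule used position only and gave 444 of 56044 genes, 210 upstream and 234 downstream, with starts from 36222301 to 40196320. A gene was tested when its mean normalized read count exceeded 10, which 272 members (61.3%) and 56.6% of all genes did. Of the other members, 29 had no read in any library and 143 had too few reads.

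MRP-N and its homoeolog MRP-L (Glyma.19G169000) encode multidrug resistance-associated proteins, ABC transporters of the C subfamily that are held to move phytic acid, the main phosphorus store of the seed, into the vacuole. Recessive alleles of both genes, mrp-n and mrp-l, give low phytic acid seed, as does mips1, an allele of the gene for the synthase that starts inositol and phytic acid synthesis. In a cross, DNA next to a selected allele is usually inherited with it. The interval around MRP-N is therefore where lines that differ in mrp-n could also differ in the parental DNA of linked genes, and read counts at these neighbours were compared between the alleles.

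RNA was sequenced from soybean seed at stage 1 (dry seed), stage 2 (8 h of imbibition) and stage 3 (radicle emergence), with 3 libraries of 10 seeds per line and stage. Dry seed was milled, with no removal of parts described, whereas coats and radicles were taken off at stages 2 and 3 and the remainder was ground in liquid nitrogen. Lines labelled mrp-n were 2mlpa (mrp-l, mrp-n), 2MWT-L (mrp-n alone) and 3mlpa (mips1, mrp-l, mrp-n), and lines labelled MRP-N were 2MWT (no mutant allele), 2MWT-N (mrp-l alone) and 3MWT (no mutant allele). They form 3 pairs with no library in common. 2mlpa against 2MWT-N and 2MWT-L against 2MWT differ in the mrp-n label only, and 3mlpa against 3MWT also differ in mrp-l and mips1. Of these lines, the study lists 2mlpa and 3mlpa as low in phytic acid and emergence and the others as normal. The pair of 2mlpa and 2MWT-N therefore also differs in these traits, and the pair of 2MWT-L and 2MWT does not. By the study's methods, all 6 lines came from crosses between the same parents, a carrier of mrp-l and mrp-n and a carrier of mips1. The lines 1mlpa (mips1) and 1MWT, from another cross, have no MRP allele on their labels, are listed by the study as wild type at both MRP genes, and served for comparison. Each mutant genotype was a single line, and 2MWT and 3MWT, both without a mutant allele, were not treated as replicates. The p-values therefore measure the spread between seed samples of a line, and a point mutation and linked parental DNA cannot be told apart. The counts hold no sequence, so the labelled alleles could not be read from them, and whether the labels of 2MWT-L and 2MWT-N belong to these libraries was not tested.

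The 71 libraries used held 20295984 to 39759526 counts each (median 28412327). A near-empty library (2MWT-N stage 2 replicate 1, total 12679) was left out. The markers set for seed storage tissue are 4 storage protein genes. They come from the study's list of genes that differed between 2mlpa and each other MRP line in these same libraries. Comparisons that include 2mlpa therefore give no independent result for them. The 12S globulin genes Glyma.10G037100 and Glyma.13G123500 had reads in every library, Glyma.10G037100 between 29.0 and 10700 counts per 1000000 counts (CPM), whereas Glyma.19G164900 reached no more than 1.23 CPM in the Mips lines and Glyma.20G148300 no more than 0.968 CPM in 2MWT-L, 1.69 in 3MWT and 1.47 in the Mips lines.

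MRP-N itself was transcribed in all lines. Its level lay between 18.8 and 109 CPM in lines labelled mrp-n and between 22.7 and 110 CPM in lines labelled MRP-N, so that the ranges overlapped almost fully. Averaged over stages and pairs, the log2 fold change of mrp-n lines was -0.20 (SE 0.09, adjusted p = 0.129, edgeR quasi-likelihood test, Benjamini-Hochberg over all genes tested). The transcript rose from stage 1 to stage 2 (log2 fold change 1.41, SE 0.11) and fell by 0.53 on the log2 scale from stage 2 to stage 3 (SE 0.10) in the mean of the 6 lines. MRP-N therefore gave no check of the allele label, since a point mutation need not alter the level of its transcript.

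Along the interval, no neighbour of MRP-N passed the test for the mrp-n label. With all 3 pairs and 3 stages averaged, 0 of the 272 members were called (adjusted p below 0.01 and absolute log2 fold change above 1), against 0.652% of all genes tested. The edgeR test gave 54 members an unadjusted p below 0.05 (19.9%, against 23.9% of all genes), and DESeq2 also called 0 members. The median absolute log2 fold change was 0.12 in members and 0.14 over all genes, and member values ranged from -0.90 to 0.90. The lowest was that of Glyma.03G157700, which had groups with no read, and its fitted value depends on the prior count. Glyma.03G167900, Glyma.03G168000, Glyma.03G168600 and Glyma.03G184400 also had such groups. The SE of these members ran from 463 to 2530 in this comparison, so they could not be called whatever their difference. For 235 members (86.4%, against 87.8% of all genes) the 95% interval of the log2 fold change lay wholly between -1 and 1, so a change of 2-fold or more in the mean of the 3 pairs lay outside the interval for most neighbours but not for the remaining 37. No member was called in all 3 pairs, compared with 0.0189% of all genes, and DESeq2 gave the same count of 0.

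**Figure D1:**
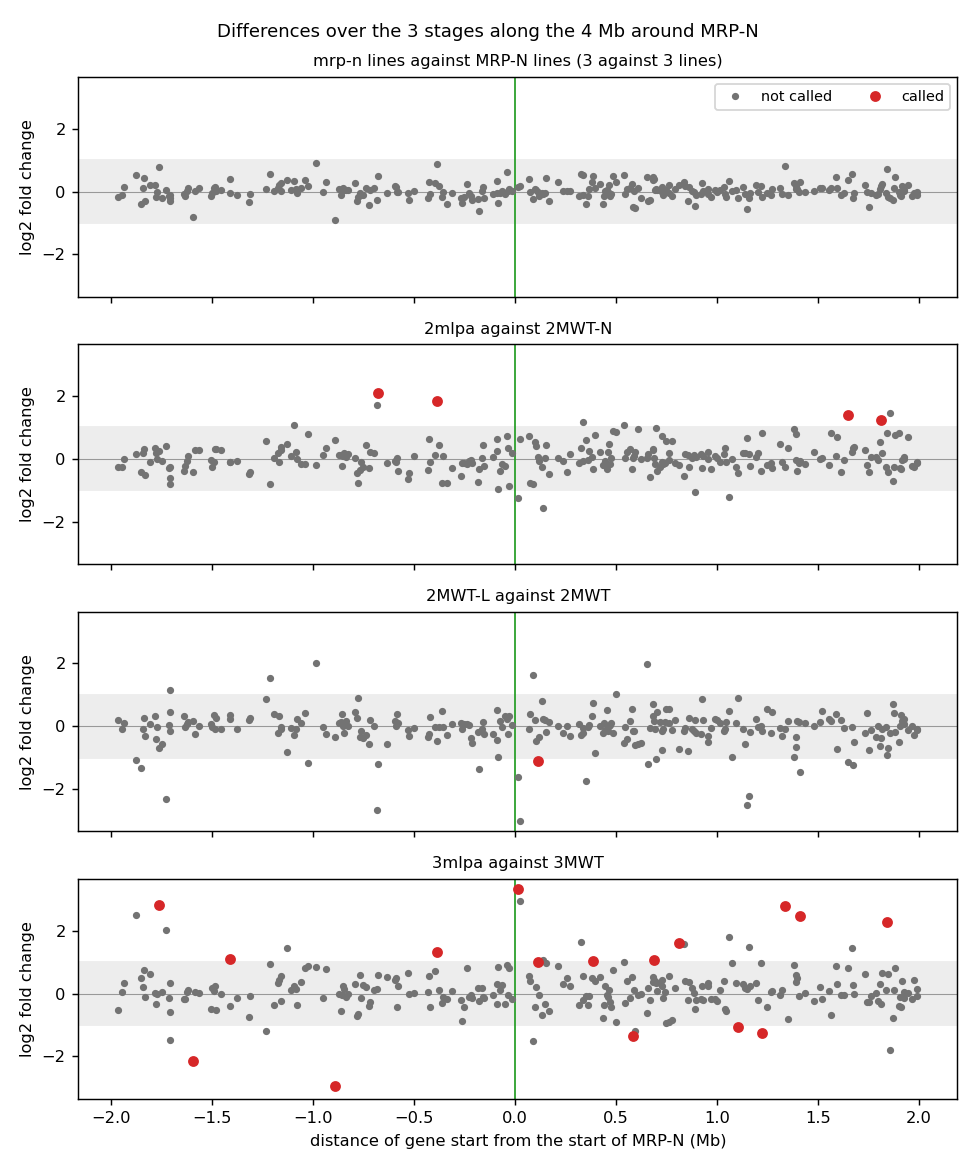
Log2 fold change over the 3 stages of each of the 272 tested members (y axis) against the distance of its start from that of MRP-N in Mb (x axis), for the 6 lines by the mrp-n label and for each pair. The grey band marks log2 fold changes between -1 and 1, the green line MRP-N and red points the called members, which number 0, 4, 1 and 16 from top to bottom and are not gathered at MRP-N.

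By stage, 0 members were called at stage 1 (0.974% of all genes), 1 at stage 2 (0.495%) and 0 at stage 3 (0.482%). An unadjusted p below 0.05 was given to 55, 42 and 39 members at these stages by edgeR, and DESeq2 called 1, 1 and 2. No share of all genes is set beside these counts, so they do not show whether members differ from other genes. The member called at stage 2 was Glyma.03G183500, whose log2 fold change of 1.04 (SE 0.25, adjusted p = 0.00977) stood at both thresholds and was called in 2 of the 17 refits that left out a library of that stage. No member had every mrp-n library above, or every mrp-n library below, every MRP-N library at any stage. That complete separation was itself rare, with 0.0189%, 0.136% and 0.0441% of all genes at stages 1, 2 and 3.

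Without the 2-fold criterion, 12 members had an adjusted p below 0.01 (4.41%, against 4.83% of all genes), 10 of them higher in mrp-n lines. The clearest was Glyma.03G167200, 0.0392 Mb upstream of MRP-N, whose Arabidopsis homolog AT4G17940 is uncharacterized, with a log2 fold change of 0.62 (SE 0.09, adjusted p = 1.63e-06). Its difference was 0.73 in 2mlpa against 2MWT-N, 0.24 in 2MWT-L against 2MWT and 0.91 in 3mlpa against 3MWT. Glyma.03G166700 (0.34) and Glyma.03G175400 (0.38), which have no homolog in the tables of the study, had the same sign in all 9 combinations of pair and stage. Only 3 members (1.10%, against 0.621% of all genes) had such a uniform sign, the other being Glyma.03G175500 (0.47, adjusted p = 0.0544). Glyma.03G175400 and Glyma.03G175500 each overlap another gene, and reads that fell on several genes were not assigned.

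The other members of this group differed less evenly among the pairs. Glyma.03G175600, a homolog of the MYB-like factor AT4G37180 (0.41), Glyma.03G183500 (0.82), Glyma.03G189600 (0.72), Glyma.03G189300, a homolog of the trihelix factor GT-2 (0.25), and Glyma.03G169400 (0.42) had their largest value in 3mlpa against 3MWT. Glyma.03G163500 (0.89) and Glyma.03G172500 (0.20) had their largest value in 2mlpa against 2MWT-N. Glyma.03G153800, a homolog of cyclin U3-1 (-0.34), and Glyma.03G175200 (-0.27) were lower in mrp-n lines. The storage markers Glyma.10G037100, Glyma.13G123500, Glyma.19G164900 and Glyma.20G148300, outside the interval, had 0.55, 0.67, 0.78 and 0.78 in the same mrp-n comparison. Their adjusted p were 0.00745, 0.00932, 9e-05 and 0.00685 (edgeR). These markers were listed by the study as differing in 2mlpa, an mrp-n line, so the p-values are no independent result. The part of the markers in the values of the members was not tested. The members of this group were listed after their values had been seen, apart from Glyma.03G163500, Glyma.03G175600, Glyma.03G183500 and Glyma.03G189600.

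The genes nearest to MRP-N did not pass the test for its label. Upstream, Glyma.03G167300, Glyma.03G167400 and Glyma.03G167600 start 0.0332, 0.0280 and 0.0121 Mb from it. Their log2 fold changes were 0.01 (95% interval -0.12 to 0.15), 0.09 (-0.36 to 0.55) and 0.01 (-0.18 to 0.20). Downstream, Glyma.03G168300 (0.0691 Mb), which overlaps another gene, had 0.41 (0.07 to 0.74, adjusted p = 0.114). The next 2 downstream genes, Glyma.03G167900 and Glyma.03G168000, had groups with no read, which left their mean over pairs and stages without a usable error, and are described by their levels further down.

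**Figure D2:**
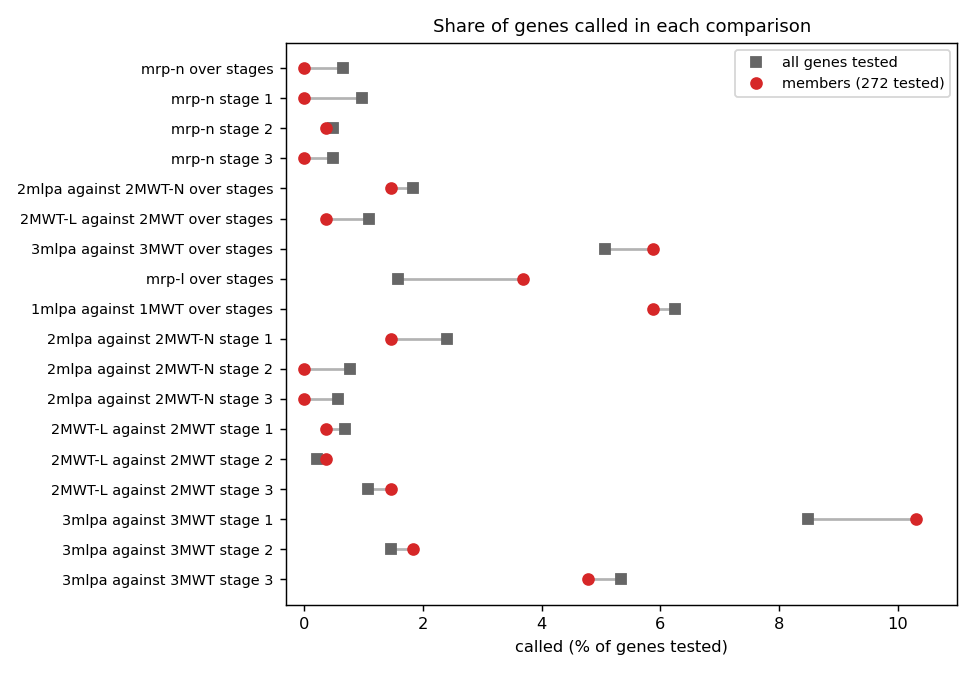
Percentage of genes called (x axis) in each comparison (y axis) among the 272 tested members (red circles) and all 31729 genes tested (grey squares). For the mrp-n label over stages the members stand at 0% and all genes at 0.652%, whereas for the mrp-l label they stand at 3.68% and 1.58%.

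Within the pairs, members were called about as often as genes elsewhere. In 2mlpa against 2MWT-N, 4 members were called (1.47%, against 1.83% of all genes), all higher in 2mlpa. In 2MWT-L against 2MWT there was 1 (0.368%, against 1.10%), and in 3mlpa against 3MWT there were 16 (5.88%, against 5.07%), 11 higher and 5 lower. In all, 19 members were called in at least 1 pair (7.02% of all genes were). In at least 2 pairs 2 members were called, for which no share of all genes was counted. The pairs did not share a direction more often than elsewhere, since 40 members (14.7%) had the same sign in all 3 pairs, against 19.0% of all genes.

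At single stages the shares of members also lay near those of all genes. In 2mlpa against 2MWT-N, 4 members were called at stage 1, 2 higher and 2 lower (2.40% of all genes), and 0 at stages 2 (0.778%) and 3 (0.567%). At stages 2 and 3, 38 and 27 members had an unadjusted p below 0.05 by edgeR, with no share of all genes given, and DESeq2 was not run. In 2MWT-L against 2MWT dry seed and imbibed seed gave 1 each (0.690% and 0.217% of all genes), and radicle emergence gave 4 (1.07%), 3 of them lower. In 3mlpa against 3MWT there were 28 at stage 1, 22 of them higher (10.3%, against 8.49% of all genes), 5 at stage 2 (1.84%, against 1.47%) and 13 at stage 3 (4.78%, against 5.33%).

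Members whose libraries did not overlap within a pair at any stage were also few. Between 2mlpa and 2MWT-N there were 2 (0.735%, against 2.04% of all genes), Glyma.03G163500 higher and Glyma.03G165400 lower in 2mlpa. Between 2MWT-L and 2MWT there were 4 (1.47%, against 1.09%), Glyma.03G159000 and Glyma.03G175400 higher and Glyma.03G174500 and Glyma.03G186300 lower in 2MWT-L. Between 3mlpa and 3MWT there were 6 (2.21%, against 3.37%), of which Glyma.03G159000 was lower in 3mlpa and Glyma.03G161100, Glyma.03G167900, Glyma.03G169400, Glyma.03G183500 and Glyma.03G189600 were higher. Between 1mlpa and 1MWT there were 21 (7.72%, against 7.59%). With the 4 MRP lines divided by the mrp-n label, 0 members were apart (0.0347% of all genes).

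The 4 members higher in 2mlpa than in 2MWT-N were Glyma.03G160200, Glyma.03G163500, Glyma.03G187000 and Glyma.03G189200. Without 2MWT-N stage 2 replicate 2 the count was 2, as Glyma.03G187000 and Glyma.03G189200 lost their calls. Glyma.03G187000 also lost its call without 2MWT-N stage 1 replicate 1 or stage 3 replicate 1, and Glyma.03G189200 without 2mlpa stage 3 replicate 1. Glyma.03G163500 is a homolog of the Arabidopsis 12S seed storage globulin AT5G44120 and was the member with the highest mean level, 6730 CPM. At stage 1 its 3 libraries held 90200, 56200 and 31400 CPM in 2mlpa, against 15700, 8840 and 15500 CPM in 2MWT-N, 3630, 4290 and 9250 CPM in 2MWT-L and 11700, 16500 and 9750 CPM in 2MWT. The libraries of 2mlpa stood above those of 2MWT-N at all 3 stages, by a log2 fold change of 1.83 over stages. In 2MWT-L against 2MWT the value was -0.48 and did not pass, and the 2 values differed by 2.31 (adjusted p for the difference = 0.000146). In 3mlpa it was higher than in 3MWT by 1.31 at a level of 300 to 3680 CPM, but this call was lost without 3mlpa stage 3 replicate 1.

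The set storage protein markers outside the interval moved in the same lines. The 12S globulin genes Glyma.10G037100, Glyma.13G123500 and Glyma.19G164900 and the vicilin-like Glyma.20G148300 had log2 fold changes of 1.81, 1.84, 1.91 and 2.06 in 2mlpa against 2MWT-N and of -0.53, -0.89, -0.83 and -1.16 in 2MWT-L against 2MWT. All 4 were called in the former pair and none in the latter. The former result was largely set by their choice, since the study lists them as differing between 2mlpa and each other MRP line. In 3mlpa against 3MWT they had 0.38, 1.06, 1.27 and 1.45, and all but Glyma.10G037100 were called. Across lines, Glyma.10G037100 ranged from 150 to 10700 CPM in 2mlpa, from 58.5 to 1930 CPM in 2MWT-N, from 90.7 to 1030 CPM in 2MWT-L and from 62.6 to 1380 CPM in 2MWT. The part of storage tissue or its RNA in the result for Glyma.03G163500 was not tested, and more of a tissue and more RNA per cell cannot be told apart in such samples. Storage globulins are a multigene family and reads that fit several places were not counted, so the level of Glyma.03G163500 may be understated, which was not tested. Glyma.20G148300 had 2 to 21 counts per library in 2MWT-L, which makes its value in that pair imprecise.

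**Figure D3:**
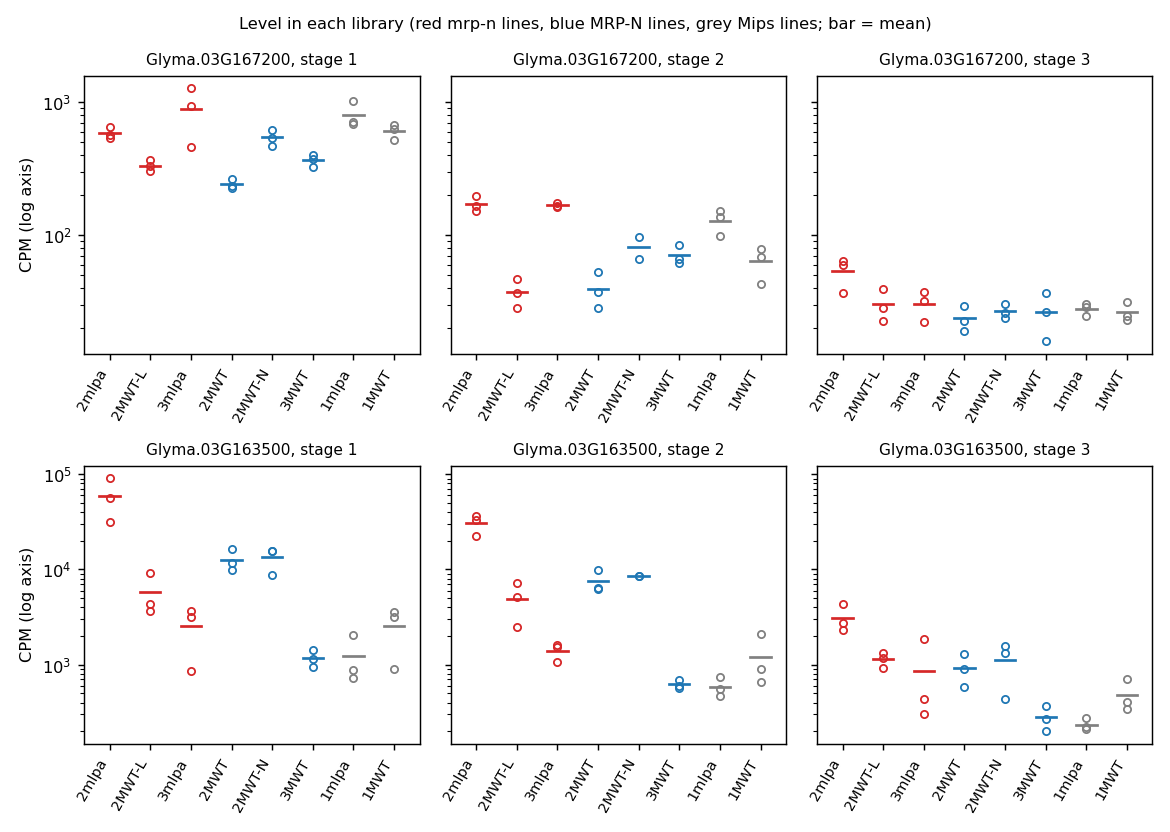
CPM in each library (circles, log y axis) by line and stage for Glyma.03G167200 (upper row) and the storage globulin homolog Glyma.03G163500 (lower row), with the mean of the group as a bar. Glyma.03G163500 reaches 90200 CPM in dry seed of 2mlpa, and Glyma.03G167200 is higher in 2mlpa and 2MWT-N than in 2MWT-L and 2MWT at stages 1 and 2.

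Glyma.03G160200, a homolog of the bZIP factor TGA6 (AT3G12250), followed the same lines. Its stage 1 libraries held 157, 96.1 and 33.7 CPM in 2mlpa, 4.28, 8.97 and 39.2 CPM in 2MWT-N, 4.07, 5.66 and 6.28 CPM in 2MWT-L and 9.65, 17.6 and 6.20 CPM in 2MWT. The log2 fold change was 2.10 in 2mlpa against 2MWT-N and -1.19 in 2MWT-L against 2MWT, the latter not called, and these differed by 3.29 (adjusted p = 7.54e-07). Glyma.03G159000, which has no homolog in the tables of the study, went the other way. It ranged from 69.7 to 887 CPM in 2mlpa, from 140 to 1210 CPM in 2MWT-N, from 193 to 1380 CPM in 2MWT-L and from 153 to 747 CPM in 2MWT, with log2 fold changes of -0.78 and 0.89 in these pairs and a difference of -1.66 (adjusted p = 1.45e-07). Every 2MWT-L library stood above every 2MWT library of its stage for this gene, and every 3mlpa library below every 3MWT library.

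In total, the mrp-n difference depended on the mrp-l label in 23 members (8.46%, against 7.83% of all genes) and differed between the Mips-MRP pair and the MRP pairs in 31 (11.4%, against 11.1%). It differed between stages 1 and 3 in 0 members (0.217% of all genes). For that test 42 members had an unadjusted p below 0.05 by edgeR and 3 were called by DESeq2, with no share of all genes given. At the adjusted threshold of edgeR the shares of members were thus close to the background in each case. The member with the clearest difference between subsets after Glyma.03G183500 was Glyma.03G175600, with log2 fold changes of 0.02, 0.15 and 1.06 in the 3 pairs.

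Among the transcription factors that the study lists as regulators of gene modules, 2 lie in the interval. Glyma.03G189600 is a homolog of HRA1, a trihelix factor that dampens the response to low oxygen in Arabidopsis. At stage 3 its libraries held 199, 231 and 199 CPM in 3mlpa and 22.8, 11.1 and 16.5 CPM in 3MWT, and the log2 fold change over stages was 2.28 (SE 0.32). In 1mlpa against 1MWT it was called at 2.78 (SE 0.33). The values of 0.81 in 2mlpa against 2MWT-N and -0.92 in 2MWT-L against 2MWT were not called. The part of any allele in these values was not tested, and with 1 line per mutant genotype it cannot be told apart from other DNA of the line. The other regulator, Glyma.03G173300, a homolog of the zinc finger factor ZAT11, reached no more than 2.86 CPM in any library, was not called in the 3 pairs (1.09, -0.54 and 1.02) and had 1.82 in 1mlpa against 1MWT (adjusted p = 0.0094), a call kept in 4 of 18 refits that left out a library.

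Further members called in 3mlpa against 3MWT were Glyma.03G175600 (1.06), Glyma.03G177500 (1.60), a homolog of the auxin response factor MONOPTEROS (AT1G19850), Glyma.03G151200 (-2.16), a homolog of isoamylase 2 of starch metabolism, and Glyma.03G157700 (-2.94), a homolog of a plasma membrane calcium pump. Glyma.03G157700 had 5 of 24 groups with no read, so that its fitted value depends on the prior count. Glyma.03G151200 and Glyma.03G157700 lost their calls without 3MWT stage 1 replicate 2, and Glyma.03G177500 kept its call in 5 of 18 refits. The single member called in 2MWT-L against 2MWT, the cupin homolog Glyma.03G168900 (-1.11), kept its call in 4 of 18. The same gene was called in the other direction in 3mlpa against 3MWT (1.01), a call also kept in 4 of 18.

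The mrp-l label, not mrp-n, gave a larger share called in neighbours of MRP-N than in all genes. MRP-L itself lies on chromosome 19. In the 4 MRP lines, 2mlpa and 2MWT-N (mrp-l) against 2MWT-L and 2MWT (MRP-L), 10 members were called (3.68%, against 1.58% of all genes), 9 higher and 1 lower in mrp-l lines. Of these, 7 were among the 73 members tested within 0.5 Mb of MRP-N (9.59%), and 5 were among the 39 between 0 and 0.5 Mb downstream (12.8%). Among those 5, Glyma.03G167900, Glyma.03G168000 and Glyma.03G168600 had groups with no read, so their fitted fold changes depend on the prior count. For the mrp-n label over stages they had no usable error and could not be called. The calls of Glyma.03G168000 and Glyma.03G172800 were lost in many refits that left out a library. The share of 12.8% therefore rests mostly on imprecise calls. Among the 10, Glyma.03G160200 and Glyma.03G163500 were highest in 2mlpa and were not split by the label, as described further down. A test against a 2-fold change kept fewer of the calls, as given in the section on processing. Were the labels of 2MWT-L and 2MWT-N exchanged, the mrp-l comparison of the MRP lines would be one by mrp-n, and the values given for mrp-n, among them the count of 0 over stages, would no longer be for that allele. The counts cannot tell these cases apart. On the rest of chromosome 3, 21 of 1175 genes were called (1.79%). Within 2 Mb of MRP-L itself the mrp-l label gave 6 of 261 genes tested (2.30%) and the mrp-n label gave 2 (0.766%). These shares are counts from a single fit, were not tested against each other, and rest on the same libraries as the pairs of MRP lines.

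**Figure D4:**
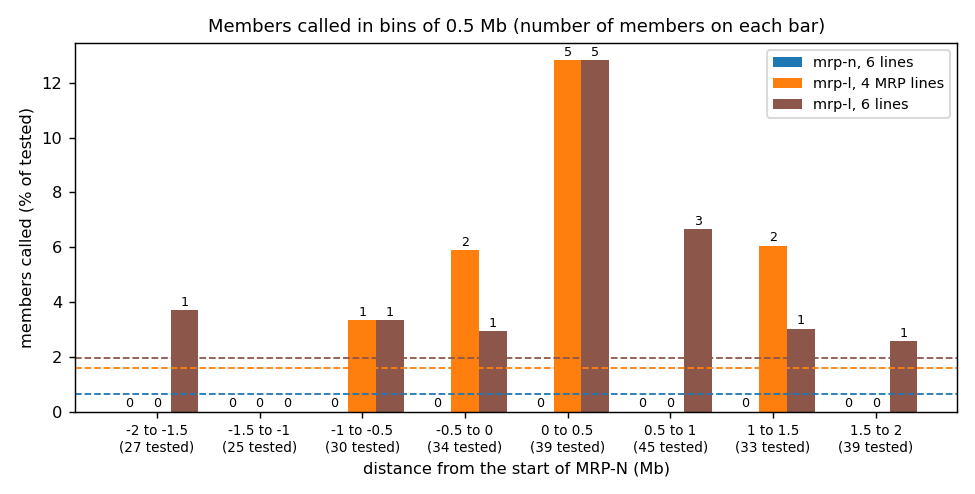
Percentage of tested members called (y axis, number of members on each bar) in bins of 0.5 Mb from the start of MRP-N (x axis), by the mrp-n label in 6 lines and by the mrp-l label in 4 and in 6 lines. Dashed lines mark the share of all genes in the same comparison, 0.652%, 1.58% and 1.95%. No bin holds a member called for mrp-n, and the bin from 0 to 0.5 Mb holds 5 called for mrp-l in both versions. Among these, Glyma.03G167900, Glyma.03G168000 and Glyma.03G168600 had groups with no read, so their fold changes depend on the prior count. For the mrp-n label such groups left them without a usable error (SE 463, 962 and 562). They could therefore not be called for mrp-n.

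With 3mlpa (mrp-l) and 3MWT (MRP-L) added to the comparison, a contrast chosen after these values had been seen, 13 members were called (4.78%, against 1.95% of all genes), 6 of them within 0.5 Mb of MRP-N. The added lines also differ in mrp-n and mips1, which cannot be told apart from mrp-l in them. Glyma.03G189600, among the 13 with 1.22, had 0.68 in the 4 MRP lines (adjusted p = 0.0208, edgeR, not called). In 1mlpa against 1MWT it had 2.78. Outside the interval, 2 to 4 Mb upstream of MRP-N, 2MWT-L against 2MWT had 16 of 115 genes called (13.9%, against 1.10% of all genes), compared with 1 of 272 members inside it. This window and pair were singled out among 2 Mb windows of chromosome 3 with no rule set beforehand. Other windows and pairs are not given here, and the share was not tested.

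Glyma.03G183500, 1.34 Mb downstream of MRP-N, had the largest fold change of the 10. It is a homolog of AT5G03760, a cellulose synthase-like glycosyltransferase (CSLA9) that makes mannan chains of the cell wall. At stage 1 its libraries held 128, 68.6 and 112 CPM in 2mlpa, 142, 121 and 113 CPM in 2MWT-N and 57.9, 30.0 and 34.7 CPM in 3mlpa. They held 5.38, 7.30 and 6.66 CPM in 2MWT-L, 5.82, 6.43 and 10.3 CPM in 2MWT and 6.13, 4.53 and 2.60 CPM in 3MWT. The lines labelled mrp-l were therefore all high and the others all low in dry seed, without overlap.

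The separation held as the transcript declined. At stage 2 the level was 27.9 ± 6.06 CPM (SD, n = 3) in 2mlpa, 22.2 ± 6.73 (SD, n = 2) in 2MWT-N and 9.81 ± 0.92 (SD, n = 3) in 3mlpa, but 0.81 ± 0.57 in 2MWT-L, 1.02 ± 0.10 in 2MWT and 1.12 ± 0.42 in 3MWT (SD, n = 3 each). At stage 3 the libraries of mrp-l lines ranged from 0.758 to 6.61 CPM and those of the other lines from 0.084 to 0.589 CPM. It was 1 of 3 genes among 31729 (0.00946%) whose libraries were wholly apart by the mrp-l label in all 6 lines at every stage, and the only member. In the 4 MRP lines alone it was also the only member so separated, with 0.0378% of all genes.

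The log2 fold change by the mrp-l label in the MRP lines was 4.25 (SE 0.18, adjusted p = 8.51e-26), and it was called in all 35 refits that left out a library of those lines. For the mrp-n label it was -0.25 (95% interval -0.69 to 0.19) in 2mlpa against 2MWT-N and -0.09 (-0.68 to 0.50) in 2MWT-L against 2MWT. In 3mlpa against 3MWT, which differ in both labels, it was 2.80 (SE 0.25, adjusted p = 2.3e-13), and the difference between this and the mean of the MRP pairs was 2.97 (adjusted p = 5.84e-11). In the Mips lines, wild type at both MRP genes by the study's list but without these alleles on the labels, 1mlpa had 13.1, 12.9 and 13.4 CPM at stage 1 and 1MWT had 6.30, 7.51 and 6 CPM.

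**Figure D5:**
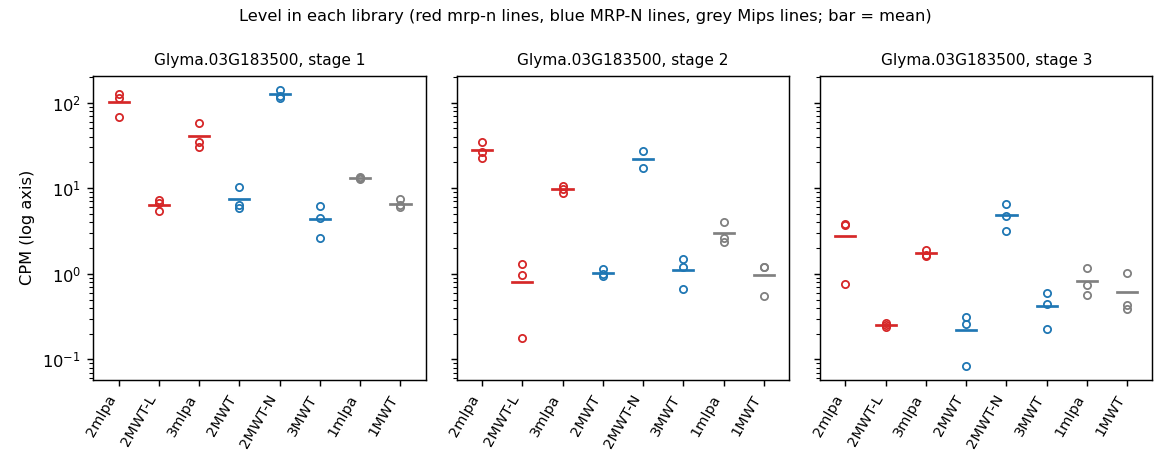
CPM of Glyma.03G183500 in each library (circles, log y axis) by line, with the group mean as a bar, at stages 1, 2 and 3. At every stage the libraries of 2mlpa, 3mlpa and 2MWT-N lie above those of 2MWT-L, 2MWT and 3MWT, so that both mrp-n lines (red) and MRP-N lines (blue) fall on either side.

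Closer to MRP-N, smaller differences went the same way. Glyma.03G169400, 0.157 Mb downstream and without a homolog in the tables of the study, had 25.5, 19.8 and 22.2 CPM at stage 1 in 2mlpa and 19.1, 17.2 and 14.7 CPM in 2MWT-N, against 9.59, 11.5 and 11.2 CPM in 2MWT-L and 12.8, 10.8 and 8.24 CPM in 2MWT. Its log2 fold change by mrp-l was 1.16 (SE 0.10, adjusted p = 6.87e-13), and in 3mlpa against 3MWT it was 0.98 with the libraries apart at all stages. Glyma.03G167200 had 564, 535 and 649 CPM in 2mlpa and 472, 618 and 542 CPM in 2MWT-N, against 302, 366 and 331 CPM in 2MWT-L and 228, 235 and 265 CPM in 2MWT, a log2 fold change of 1.04 (SE 0.11). That call was lost without 2MWT-N stage 2 replicate 3.

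Glyma.03G175600, at 0.69 Mb, showed the same split below the 2-fold criterion. At stage 1 it had 309 to 412 CPM in 2mlpa, 337 to 391 in 2MWT-N and 286 to 515 in 3mlpa, and 166 to 199 CPM in 2MWT-L, 145 to 194 in 2MWT and 140 to 179 in 3MWT. The difference by mrp-l was 0.80 (SE 0.08, adjusted p = 5.07e-11) in the MRP lines.

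Among the members beside MRP-N were 3 with low counts. Glyma.03G167900, 0.0177 Mb downstream and a homolog of the NAC factor ATAF1, ranged from 0 to 8.03 CPM in 2mlpa, 0.475 to 7.10 in 2MWT-N and 0.247 to 6.55 in 3mlpa, and from 0 to 1.95 CPM in 2MWT-L, 0 to 1.12 in 2MWT and 0 to 3.15 in 3MWT. In the Mips lines it reached 6.52 CPM in 1mlpa and 8.04 CPM in 1MWT. Glyma.03G168000, a homolog of the ABC transporter PDR12 (AT1G15520), reached 54.2 CPM in 2mlpa and 30.2 CPM in 2MWT-N, against 7.51 CPM in 2MWT-L and 19.4 CPM in 2MWT. Its call was kept in only 12 of 35 refits. Glyma.03G168600, a homolog of a DENN domain protein, was the member lower in mrp-l lines, with at most 0.331 CPM in 2mlpa and 0.744 CPM in 2MWT-N and up to 2.99 CPM in 2MWT-L and 2.62 CPM in 2MWT. Each of the 3 genes had groups whose libraries held no read, so their fitted fold changes depend on the prior count and are not given in this paragraph. Their calls are still part of the counts for mrp-l.

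The storage globulin homolog Glyma.03G163500 (1.33) and the TGA6 homolog Glyma.03G160200 (1.55) were also called for mrp-l. Both had their highest level in 2mlpa and were not split by the label. Glyma.03G163500 averaged 7550 CPM in 2MWT-N (mrp-l, 8 libraries) and 7030 CPM in 2MWT (MRP-L, 9 libraries). Glyma.03G160200 averaged 20.6 CPM in 2MWT-N and 24.9 CPM in 2MWT. Further calls for mrp-l were Glyma.03G181800 (1.21) and Glyma.03G172800 (1.14). The call of Glyma.03G172800 was kept in 18 of 35 refits. The storage markers Glyma.10G037100, Glyma.13G123500, Glyma.19G164900 and Glyma.20G148300 had 1.33, 1.65, 1.34 and 1.74 for the same label. Since the study lists them as differing in 2mlpa, an mrp-l line, these values are no independent result. The part of the markers in these calls was not tested.

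More members were called between stages than for any allele label, and the sampled tissue and the grinding also changed from stage 1 to stage 2, which cannot be told apart from imbibition. From stage 1 to stage 2, 125 members were called in the mean of the 6 lines (46.0%, against 48.5% of all genes), 78 higher and 47 lower. From stage 2 to stage 3, 104 were called (38.2%, against 33%), 45 higher and 59 lower. At both steps 23 members rose (8.46%, against 7.71% of all genes) and 19 fell (6.99%, against 5.93%), and 101 (37.1%, against 37% of all genes) were called at neither.

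The most abundant members per kilobase of exon were transcripts of dry seed. Glyma.03G190100, a homolog of AT3G10020, had the highest mean at 4433 CPM per kb, and its level in the mean of the 6 lines went from 8871 CPM at stage 1 to 487.5 at stage 2 and 11.1 at stage 3. Glyma.03G189200, with 1311 CPM per kb and no homolog in the tables, held 3385, 2026 and 48.2 CPM at the 3 stages. Glyma.03G163500, with 778.7 CPM per kb, held 15790, 8942 and 1240 CPM. Glyma.03G183500 belonged to the same kind, with log2 fold changes of -2.37 and -2.24 at the 2 steps. In the other direction, Glyma.03G175200 rose from 9.56 CPM to 114 and 166 CPM, with log2 fold changes of 3.59 (called) and 0.55 (not called).

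In the Mips lines, 16 members were called between 1mlpa and 1MWT (5.88%, against 6.25% of all genes), 8 higher and 8 lower. They included Glyma.03G189600 (2.78), Glyma.03G190100 (1.29), Glyma.03G183500 (1.01) and Glyma.03G163500 (-1.05). The calls of Glyma.03G163500 and Glyma.03G183500 were kept in 8 and 11 of 18 refits.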

How the data were processed

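Libraries of 8 soybean lines at 3 stages with 3 replicates (72 in all) were analysed. The authors trimmed reads, aligned them to Williams 82 Wm82.a2.v1 with STAR 2.5.2b and deposited raw counts of read pairs per gene from featureCounts 1.5.1, without strand, with reads at several places or several genes left out. Gene positions and exon lengths came from the same tables, per the file headers. No column of sample values was left unused (0).

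The deposited counts of 71 libraries were fitted together in edgeR 4.0.16 (R 4.3.3) with 24 groups of line and stage, TMM factors and a quasi-likelihood test, leaving out the library under 1000000 counts. CPM used TMM-scaled totals. P-values were adjusted by Benjamini-Hochberg over 31729 genes with a mean normalized count above 10, and a call needed an adjusted p below 0.01 and an absolute log2 fold change above 1, except in tests of a difference, which needed the former only. Standard errors were taken from the fold change and its F statistic. On simulated counts for the mrp-n comparison, 194 of 194 changed genes (log2 change 2) among 31615 genes were called. The simulation used a constant dispersion, no differences between stages and the same change in every mrp-n line. It checked the code and gives no power for the comparisons in the real counts.

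Alternatives were DESeq2 (version 1.42.0), other factors, filters and thresholds, a replicate block, other sets of libraries, and leaving out each library, for which the dispersion trend of the full fit was kept. Same-numbered libraries of a pair showed correlations of their deviations from -0.314 to 0.329 (above 0.1 in 6 of 26), so the numbers were not taken as pairing. No libraries were identical (0).

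Genes named by rule were the 3 tested members nearest to MRP-N on each side, the 3 most abundant, the 2 clearest in each test of a difference, regulators listed by the study, MRP-N and MRP-L, and the members called for mrp-n over stages (0). Others were chosen after their values were seen. Members and lists were chosen with earlier results of these data known. Homologs came from the tables of the study (70 members). The RefSeq table for this species matched 0 gene identifiers, so groups by product name were not formed and no sequence is shown.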

Additional observations from a re-analysis of the deposited data

Results flagged for a closer look

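In 9 named members the mrp-n difference was not the same with and without mrp-l, by a test of 2mlpa against 2MWT-N minus 2MWT-L against 2MWT (edgeR, adjusted p below 0.01). On the log2 scale the difference was 3.29 for Glyma.03G160200, 2.51 for Glyma.03G187000, 2.31 for Glyma.03G163500, 1.74 for Glyma.03G189600 and 1.63 for Glyma.03G189200. It was 0.976 for Glyma.03G182400, 0.622 for Glyma.03G167300, 0.476 for Glyma.03G172500 and -1.66 for Glyma.03G159000.

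The difference between 3mlpa and 3MWT departed from the mean of both MRP pairs in 13 named members by the same kind of test. It was larger by 4.75 for Glyma.03G167900, 3.06 for Glyma.03G148800, 2.97 for Glyma.03G183500, 2.34 for Glyma.03G189600, 2.07 for Glyma.03G177500 and 1.53 for Glyma.03G168900. The values were 0.973 for Glyma.03G175600, 0.852 for Glyma.03G169400 and 0.605 for Glyma.03G189300, and -0.708 for Glyma.03G159000, -1.29 for Glyma.03G174000, -1.59 for Glyma.03G182400 and -2.04 for Glyma.03G151200. Glyma.03G167900 and Glyma.03G148800 had groups with no read, so their values depend on the prior count and give no size of a change. The Mips-MRP pair also differs in mrp-l and mips1, and these labels cannot be told apart in it.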

How the results depend on the processing

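Counts of called members stayed within 1.5 times the reported one in 126 of 168 cases, and none of the named genes' values turned sign under another setting, leaving out single libraries aside (368 values). Except for the refits without a library, the counts of members in this section stand without those of all genes. They therefore do not show whether members differ from other genes. DESeq2 gave 1 and 2 members for mrp-n at stages 1 and 3, 5 for 2MWT-L against 2MWT and 3 for the difference between stages. Without a filter, and with the near-empty library kept, there was 1 for mrp-n at stage 1 and 2 for 2MWT-L against 2MWT. Stage 2 gave 0 with RLE or upper-quartile factors, and filterByExpr and the 6 lines alone gave 0 both there and for 2MWT-L against 2MWT. Subsets fitted on their own gave 0 for 2MWT-L against 2MWT and 10 for 3mlpa against 3MWT. At an adjusted p below 0.05 the counts were 3 and 2 for mrp-n at stages 1 and 3, 5 for 2MWT-L against 2MWT, 38 and 49 for the differences with mrp-l and between subsets and 2 for that between stages. Without the 2-fold criterion they were 12 for mrp-n over stages, 4 and 3 at stages 1 and 2, 13, 6 and 42 for the 3 pairs, 35 for mrp-l, 59 for the Mips pair and 213 and 196 for the steps between stages. Tested against a 2-fold change (glmTreat), they were 0 at stage 2, 0, 0 and 3 for the pairs, 2 for mrp-l, 1 for the Mips pair and 56 from stage 2 to 3.

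With a replicate block, mrp-n gave 1 member at stage 1 and 0 at stage 2, and 2MWT-L against 2MWT gave 2. The correlations of same-numbered libraries had a median of 0.0129. Leaving out each library gave 0 to 1 members for mrp-n over stages, 0 to 1 at stage 2, 2 to 5, 0 to 3 and 10 to 18 for the pairs, 8 to 13 for mrp-l and 11 to 18 for the Mips pair. Among all genes these refits called 199 to 279 for mrp-n over stages and 100 to 158 at stage 2. They called 339 to 712, 196 to 456 and 1439 to 1978 for the pairs. For mrp-l they called 427 to 615, and for the Mips pair 1746 to 2029. The 1 for mrp-n over stages appeared only without 2MWT-L stage 1 replicate 3. In 7 named genes, none with an adjusted p below 0.373 in any refit, the mrp-n value changed sign in some refit: it ranged from -0.00372 to 0.0332 for Glyma.03G167300, -0.0933 to 0.0462 for Glyma.03G167600, -0.296 to 0.803 for Glyma.03G167900, -0.00454 to 0.783 for Glyma.03G168000, -0.661 to 0.25 for Glyma.03G168600, -0.326 to 0.307 for Glyma.03G181800 and -0.0695 to 0.0754 for Glyma.03G168900. Glyma.03G167900, Glyma.03G168000 and Glyma.03G168600 had groups with no read, and their ranges reflect the prior count. Stages 1 and 3 of mrp-n, tests of a difference and steps between stages were not refitted in this way. Fold criteria do not apply to tests of a difference, and fits of a subset alone give no value for comparisons across subsets. Counts near 0 make low members imprecise, and with 1 line per mutant genotype the spread between lines was not part of any test. Lines without a mutant allele could differ widely. Glyma.03G163500 averaged 7030 CPM in 2MWT and 691 CPM in 3MWT. These lines belong to separate deposited sets of counts, so line and set cannot be told apart in these values.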
